A study of Mus musculus with 2 samples.

Results

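The cell cycle and DNA replication genes were examined in fetal mouse esophagus at E18.5, shortly before birth, in 36 genes listed by symbol and taken at every probe set whose only gene symbol in the platform annotation was one of them. Of these, 35 had at least 1 probe set and 86 probe sets were found in all, out of 34945 probe sets with 1 symbol covering 18193 genes. Ccnb1, the gene of cyclin B1, was matched by no such probe set and is not analysed here. For Tyms, a further probe set that also matches a pseudogene was left out. The series has 2 arrays, each from total RNA of fetal esophagus: 1 from wild-type BALB/c embryos and 1 from embryos labelled BALB/c and null for both Myf5 and Myod1. The number and sex of the embryos behind an RNA sample and the design of the null alleles are not stated in the labels.

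There was 1 array per genotype and no replicate of either, so each ratio sets 1 RNA sample against another, with no test and no p-value. The second array is called null-labelled because of its targeted genes: Myf5 read 4072 in wild type and 496 in the null-labelled sample (8.22-fold lower), whereas Myod1 read 2001 and 1698. The position of either probe set with respect to the deletions is unknown here, so the Myod1 signal is no check of the label. Values are MAS5 signals, in arbitrary units on a linear scale, which the authors had scaled to a common mean. A signal of 489, the median over both arrays, served as a low-signal limit to which lower values were raised before ratios were taken, and 44.6% of wild-type and 55.4% of null-labelled signals reached it. The 3' to 5' control ratio, a sign of RNA integrity, was 12.6 (wild type) and 14.2 (null-labelled) for beta-actin and 10.5 and 6.96 for Gapdh, so the controls differ in direction; its part in the results was not tested. Each gene is given by its brightest probe set, and a ratio is the log2 of null-labelled over wild-type signal. The only available error is how far the probe sets of a gene differ in this ratio, with a pooled SD of 0.56 over 5455 genes, which says nothing about variation between embryos.

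Proliferating cells pass through an ordered cycle. In G1, D-type cyclins with Cdk4 or Cdk6 phosphorylate the retinoblastoma protein, which frees E2F factors to switch on the genes of DNA replication. The minichromosome maintenance (MCM) proteins form the ring-shaped helicase that opens replication origins, and in mitosis the anaphase promoting complex, activated by Cdc20, destroys cyclin B and releases the sister chromatids. Inhibitors such as Cdkn1a and Cdkn1b hold the kinases in check as cells leave the cycle. In the developing esophagus the dividing cells include epithelial basal cells, mesenchymal and smooth muscle precursors and myoblasts, and skeletal myoblasts leave the cycle before they fuse.

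Many replication genes carry E2F sites in their promoters, and many mitotic genes carry the CHR element (cell cycle genes homology region) beside CCAAT boxes. As examples of such matches, the 180 bases before the start site are printed for 3 mitotic and 3 replication genes. They are from RefSeq on build GRCm38.p6, 5' to 3' on the gene's own strand. The genes were picked by hand and do not stand for their classes: only 4 of 9 replication genes had an E2F match. Capitals mark matches to TTTGAA or TTCGAA (CHR), CCAAT, and TTTCGCGC, TTTGGCGC or TTTCCCGC (E2F), searched on both strands, so that a CCAAT match on the other strand reads ATTGG. Matches that overlap are capitalised as 1 run. Of 2 start sites listed for Mcm7, the one with E2F and CHR matches is shown.
Ccnb2 (chr9:70421555-70421734, minus strand): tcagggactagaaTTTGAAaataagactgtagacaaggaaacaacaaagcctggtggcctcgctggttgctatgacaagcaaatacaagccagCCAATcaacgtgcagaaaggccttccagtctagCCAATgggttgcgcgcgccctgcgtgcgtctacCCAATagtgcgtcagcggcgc
Cdc20 (chr4:118437344-118437523, minus strand): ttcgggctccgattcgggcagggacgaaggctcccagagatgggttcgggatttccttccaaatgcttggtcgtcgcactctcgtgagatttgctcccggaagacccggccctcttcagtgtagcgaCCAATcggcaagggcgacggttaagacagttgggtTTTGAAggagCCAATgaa
Cdk1 (chr10:69352913-69353092, minus strand): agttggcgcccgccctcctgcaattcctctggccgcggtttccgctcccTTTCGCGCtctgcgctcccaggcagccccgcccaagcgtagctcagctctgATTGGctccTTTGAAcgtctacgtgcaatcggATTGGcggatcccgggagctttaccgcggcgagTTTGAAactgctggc
Mcm5 (chr8:75109329-75109508, plus strand): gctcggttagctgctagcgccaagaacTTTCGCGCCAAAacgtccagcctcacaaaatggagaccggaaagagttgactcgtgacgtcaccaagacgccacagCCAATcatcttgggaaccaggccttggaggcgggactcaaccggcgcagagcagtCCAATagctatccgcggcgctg
Mcm6 (chr1:128359706-128359885, minus strand): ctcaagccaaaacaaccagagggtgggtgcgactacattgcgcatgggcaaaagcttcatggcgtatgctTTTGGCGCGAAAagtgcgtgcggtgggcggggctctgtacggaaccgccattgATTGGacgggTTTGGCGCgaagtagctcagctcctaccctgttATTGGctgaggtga
Mcm7 (chr5:138171884-138172063, minus strand): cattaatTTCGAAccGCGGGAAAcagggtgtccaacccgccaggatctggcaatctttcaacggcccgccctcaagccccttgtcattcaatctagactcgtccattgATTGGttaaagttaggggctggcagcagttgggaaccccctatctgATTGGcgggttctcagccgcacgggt
Cdc20 has a CHR match 18 bases before its start with CCAAT boxes on either side, and Ccnb2 has 3 CCAAT boxes upstream. In Mcm5 and in Mcm6, E2F matches on opposite strands overlap. Cdk1 holds all 3 kinds of match.

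Promoter windows of 300 bases, reaching 50 bases past the start, were found for 29 of the 36 genes, 33 windows in all. A gene counted as matched if any of its windows held a match, whereas the shares beside these counts are per window. The 2 units are therefore not alike. A CHR match lay in 9 of 11 mitosis genes, 2 of 9 replication genes, 0 of 6 G1 and S phase regulators and 0 of 3 exit genes, against 19.2% of all 32851 windows of that length. An E2F match lay in 4 of 9 replication genes (Mcm3, Mcm5, Mcm6 and Mcm7), 1 of 11 mitosis genes (Cdk1), 1 of 6 G1 and S phase regulators (Cdk2) and 0 of 3 exit genes, against 1.84% of windows. A CCAAT match lay in 10 of 11 mitosis genes and 8 of 9 replication genes, 2 of 6 G1 and S phase regulators and 2 of 3 exit genes, against 37.4% of windows. A match is a description of letters and not evidence of a bound site. A missing match is likewise no evidence that a site is absent, since only these exact letters were searched.

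On the arrays, the ratios of the cell cycle genes spread about as widely as those of all measured genes. From the 25th to the 75th percentile the log2 ratio spanned 0.74, against 0.76 over all measured genes. Of the 35 genes, 3 read at least 2-fold lower on the null-labelled array, which 5.36% of all 13315 measured genes did, and 0 read at least 2-fold higher, against 6.01%. The 3 lower genes were Rb1, Ccne1 and Cdkn1a. With loess on signal the shares of all measured genes were 7.16% and 3.43%, and the counts among the cell cycle genes were 3 and 0, with Mcm3 (-1.06) in place of Cdkn1a (-0.94). The ratio was below 0 for 22 of 35 genes, against 43.4% of all measured genes, and the median log2 ratio was -0.18, against 0.086 over all measured genes. In bulk tissue, fewer cells of a type and less RNA per cell cannot be told apart. At 1.5-fold, 9 genes were lower (13.1% of all measured genes were) and 3 higher (18.8%). All 35 reached the limit on at least 1 array and 34 on both; the ratio of Tyms is a bound.

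**Figure D1:**
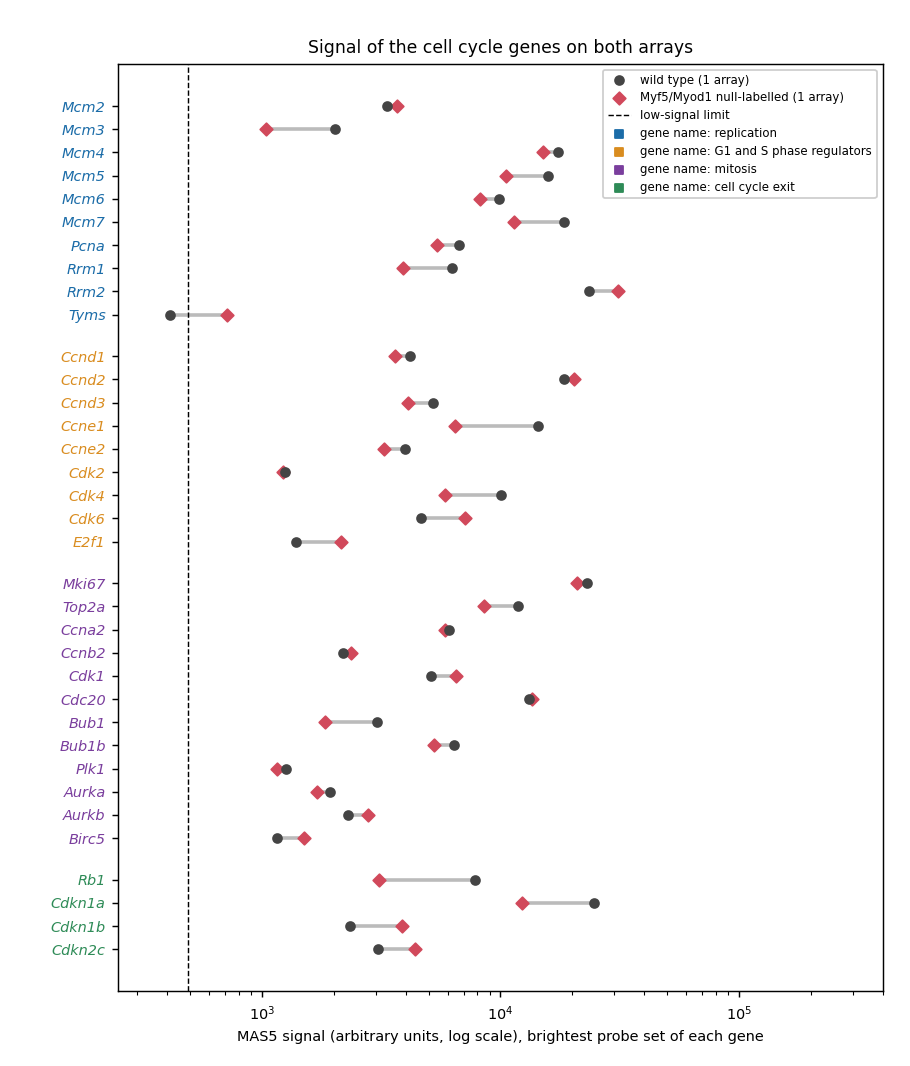
MAS5 signal (arbitrary units, log axis) of the brightest probe set of each of the 35 genes, grouped by role, with the wild-type array as circles and the null-labelled array as diamonds, 1 array each. Most pairs of points are less than 2-fold apart. Rb1 (7843 and 3085), Ccne1 (14392 and 6463) and Cdkn1a (24722 and 12278) are at least 2-fold apart.

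Most replication genes read somewhat lower on the null-labelled array. Of 10 genes, 7 had a ratio below 0 and 0 were 2-fold apart in either direction, with a median log2 ratio of -0.29. The subunits of the MCM helicase made up most of the lower side. Mcm3 read 2021 in wild type and 1038 in the null-labelled sample, a log2 ratio of -0.96, just short of 2-fold. The 5 probe sets of Mcm3 ranged from -1.48 to a bound of 0.22, with 4 below 0 and 1 above. Mcm7 read 18421 and 11402, 1.62-fold lower. Mcm5 read 15867 and 10535, 1.51-fold lower. Both of the last had every measured probe set on the lower side, with log2 ratios from -1.06 to -0.28 over the 4 probe sets of Mcm7 and of -0.59 and -0.27 for Mcm5. Mcm4 read 17408 and 15028 (log2 ratio -0.21) and Mcm6 9841 and 8241 (-0.26), and both of their measured probe sets lay below 0. Mcm2 went the other way at its brightest probe set, with 3334 and 3685 (0.14), while its second had a log2 ratio of -0.54. Over the 6 subunits, which work in a fixed complex, 5 ratios were below 0 and the median was -0.42. That grouping was made after the values were seen. For each of the 6 the brightest probe set has the suffix _x_at or _s_at. The suffix _x_at marks probes that may also bind other transcripts. Without probe sets of these 2 suffixes the log2 ratios were -0.54 (Mcm2), a bound of -0.89 (Mcm3), -0.18 (Mcm4), -0.27 (Mcm5), -0.080 (Mcm6) and -1.06 (Mcm7).

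The other replication genes were less uniform. Pcna, the sliding clamp of the replicative polymerases, read 6721 and 5397, a log2 ratio of -0.32 at its 1 probe set. Ribonucleotide reductase, which makes deoxyribonucleotides, has a large subunit encoded by Rrm1 and a small one by Rrm2, and these went opposite ways. Rrm1 read 6275 and 3895, 1.61-fold lower, with a log2 ratio of -0.046 at its second measured probe set. Rrm2 read 23583 and 30939 where it was brightest, 1.31-fold higher, and its 3 probe sets ranged from a bound of -1.01 to 0.39. The probe sets of Rrm2 thus do not settle a direction. Tyms, thymidylate synthase, read 410.4 and 710.5, at least 1.45-fold higher, and its 3 other probe sets were below the limit on both arrays.

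The regulators of G1 and S phase ranged from a log2 ratio of -1.16 to 0.63. Of 9 genes, 6 had a ratio below 0, 1 was 2-fold lower and 0 were 2-fold higher, with a median log2 ratio of -0.21. Ccne1, cyclin E1, which drives entry into S phase with Cdk2, read 14392 and 6463, 2.23-fold lower. That probe set has the suffix _x_at, which marks probes that may also bind other transcripts; the plain probe set of Ccne1 read 1512 and 1260, a log2 ratio of -0.26. The 2-fold call of Ccne1 thus rests on 1 probe set. Ccne2, cyclin E2, read 3975 and 3239 (log2 ratio -0.30). Cdk2 read 1252 and 1228, a log2 ratio of -0.028, the smallest of the 35.

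Of the D-type cyclins, which link growth signals to the cycle, none was 2-fold apart at its brightest probe set. Ccnd1 read 4168 and 3598 (log2 ratio -0.21), and its 3 probe sets ranged from -0.83 to 0.0078. Ccnd2 read 18401 and 20328 (0.14), and its 7 probe sets spread from -0.61 to a bound of 1.08, with 4 below 0 and 3 above. Ccnd3, the D-type cyclin that accumulates in differentiating muscle cells, read 5198 and 4087 (-0.35), with a bound of -0.57 at its second measured probe set. At the brightest probe set these ratios are smaller than the pooled SD within genes, while other probe sets of each of the 3 genes lie beyond it. The 2 partner kinases differed in sign at their brightest probe sets. Cdk4 read 10022 and 5859, 1.71-fold lower, and its 3 probe sets lay between -1.14 and -0.18. Cdk6 read 4628 and 7108, 1.54-fold higher, but its second measured probe set read 3313 and 1704, a log2 ratio of -0.96. Only Cdk4 had the same sign throughout. E2f1, the transcription factor released when Rb1 is phosphorylated, read 1383 and 2138, 1.55-fold higher. Its 3 probe sets had log2 ratios of 0.63, 0.49 and a bound of 0.98, and E2f1 was the only one of the 22 genes with 2 or more measured probe sets for which all were above 0.

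The mitosis genes were the most even group. Of 12 measured genes, 7 had a ratio below 0 and 0 were 2-fold apart, with a median log2 ratio of -0.095 and a range from -0.73 to 0.37. The median was 0.016 with quantile normalization, so the group has no settled sign. Mki67, the gene of the proliferation marker Ki-67, read 22957 and 20950 (log2 ratio -0.13). Top2a, the topoisomerase that untangles replicated chromosomes, read 11861 and 8503 (-0.48), with 0.53 at its second measured probe set. At the brightest probe set both proliferation genes thus differed by less than 1.5-fold. The kinase that drives mitosis and its cyclins stood on either side of 0. Cdk1 read 5097 and 6486 (0.35), Ccnb2, cyclin B2, 2191 and 2364 (0.11), and Ccna2, cyclin A2, 6075 and 5830 (-0.059).

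Spindle checkpoint and chromosome segregation genes likewise went both ways. Bub1, a checkpoint kinase, read 3031 and 1831, 1.65-fold lower, the largest difference among the mitosis genes, but its second probe set had a bound of 0.57 in the other direction. Bub1b, its relative in the mitotic checkpoint complex, read 6407 and 5264 (-0.28). Cdc20, the activator of the anaphase promoting complex, read 13157 and 13555 (0.043) at a probe set with the suffix _x_at. Its other _x_at probe set had a bound of -1.20 and its plain one a ratio of -0.24, so its sign turned without the _x_at probe sets. The further mitotic kinases Aurka, Plk1 and Aurkb were within 1.3-fold at their brightest probe sets. Aurka, the centrosomal Aurora kinase, read 1928 and 1707 (-0.18), Plk1, Polo-like kinase, 1260 and 1151 (-0.13), and Aurkb, the Aurora kinase of the chromosomal passenger complex, 2305 and 2775 (0.27), with -0.71 at its second probe set. Birc5, survivin, a partner of Aurkb in that complex, read 1162 and 1504 (0.37).

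The genes of cell cycle exit split into opposite directions and held 2 of the 3 genes past 2-fold. Rb1, whose protein holds E2F factors inactive in resting cells, read 7843 in wild type and 3085 in the null-labelled sample, 2.54-fold lower, the largest ratio of the 35. It rests on 1 probe set, the second being below the limit on both arrays. Cdkn1a, a general inhibitor of cyclin-dependent kinases induced by p53 and during muscle differentiation, read 24722 and 12278, 2.01-fold lower, and its second probe set read 5634 and 2064, a log2 ratio of -1.45. Cdkn1a was the only gene of the 22 with 2 or more measured probe sets for which at least 2 were 2-fold lower, which held for 1.65% of such genes among all those measured. With quantile normalization or loess its ratio was -0.89 or -0.94, so the 2-fold call was lost there at the brightest probe set. Cdkn1b, the related inhibitor found in many resting cells, read 2331 and 3876, 1.66-fold higher, and Cdkn2c, an inhibitor specific to Cdk4 and Cdk6, read 3070 and 4387, 1.43-fold higher. Each of these rests on 1 measured probe set. The median of the 4 exit genes, -0.25, therefore describes none of them.

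The lower exit genes were read beside markers of the cells present. Of 20 striated muscle markers, 20 reached the limit in wild type and 11 in the null-labelled sample, 19 were at least 2-fold lower, and their summed signal was 554067 and 19992. None was listed at 0; Myh3, the embryonic myosin heavy chain, read 81678 and 507. The summed signal of 10 smooth muscle markers was 342522 and 678635, of 10 epithelial markers 427724 and 498150, and of 10 fibroblast markers 337226 and 459838. Sums weight the brightest genes. By gene, 3 of the 10 smooth muscle ratios were below 0 (median 0.47), 7 of the 10 epithelial (-0.21) and 5 of the 10 fibroblast ones (0.049). In that order, 1, 2 and 3 genes were at least 2-fold lower and 2, 0 and 0 higher. The smaller sums of blood, vessel and nerve lists went both ways. They were 11319 and 7975 for 10 endothelial markers, and 28867 and 19519 for 8 markers of neurons and glia. For 5 erythroid markers they were 17287 and 9538, and for 9 white blood cell markers 19673 and 23145. Medians are over measured genes only. They were -0.62 (8 endothelial genes), -0.51 (8 of neurons and glia), -0.92 (4 erythroid) and 0.57 (4 of white blood cells). At the 75th percentile limit these medians were -0.29, -0.14, -0.89 and 0.009, so most of them depend on the setting. The part of these differences in the ratios of the cell cycle genes was not tested.

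**Figure D2:**
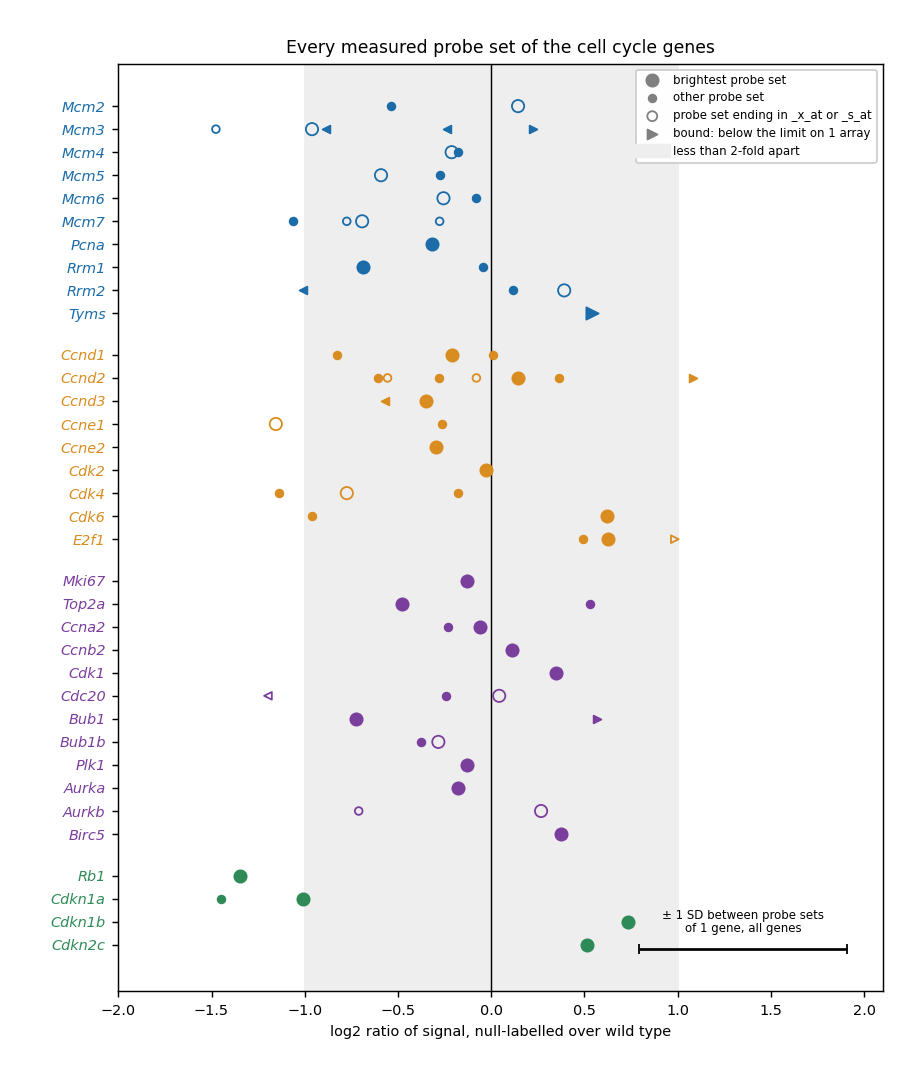
Log2 ratio of null-labelled over wild-type signal for all 72 measured probe sets of the 35 genes, with large points for the brightest probe set of a gene, open points for the suffixes _x_at and _s_at, triangles for bounds and a grey band for less than 2-fold. The bar at the lower right is the pooled SD within genes (0.56) on either side; both probe sets of Cdkn1a lie left of the band, and the 3 of E2f1 lie right of 0.

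Agreement between probe sets of a gene was the one internal check the arrays allowed. Of 72 measured probe sets, 9 were at least 2-fold lower and 1 higher, against 4.94% and 5.94% of all measured probe sets with 1 symbol. The 9 belonged to Cdkn1a (both), Rb1, Ccne1, Cdk4, Mcm3, Mcm7, Rrm2 and Cdc20, and the 1 higher to Ccnd2. For 11 of the 22 genes with 2 or more measured probe sets all lay below 0, against 17.5% of all such genes, and for 1 all lay above 0, against 30.2%. These shares of probe sets and genes were not recomputed under other settings. The median over all measured genes ran from -0.033 (75th percentile limit) to 0.17 (no limit), so these contrasts may depend on the setting. The 11 were Mcm4, Mcm5, Mcm6, Mcm7, Rrm1, Ccnd3, Ccne1, Cdk4, Ccna2, Bub1b and Cdkn1a. For the other 10 genes the probe sets disagreed in sign. Probe sets of 1 gene share the RNA sample and may share probes, so they are not replicates of the genotype. Genes with a CHR match in their promoter had a median ratio of -0.13 over 11 genes, 7 of them below 0, and those with a window but no such match -0.26 over 17 genes. With an E2F match it was -0.42 over 6 genes, 5 of them below 0 and 4 of them MCM subunits, and without one -0.13 over 22 genes.

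Cell cycle genes outside the 36 were counted in the same way. Of 167 such genes 161 were measured, and 95 of these lay below 0, with a median log2 ratio of -0.13. At least 2-fold, 11 were lower and 3 higher. Its shares of 6.83% lower and 1.86% higher stand beside 5.36% and 6.01% of all measured genes. With loess they were 9.26% and 1.23% beside 7.16% and 3.43%, and under the higher limit (75th percentile) 1.55% and 1.55% beside 4.8% and 1.85%, so the contrast depends on the setting.

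**Figure D3:**
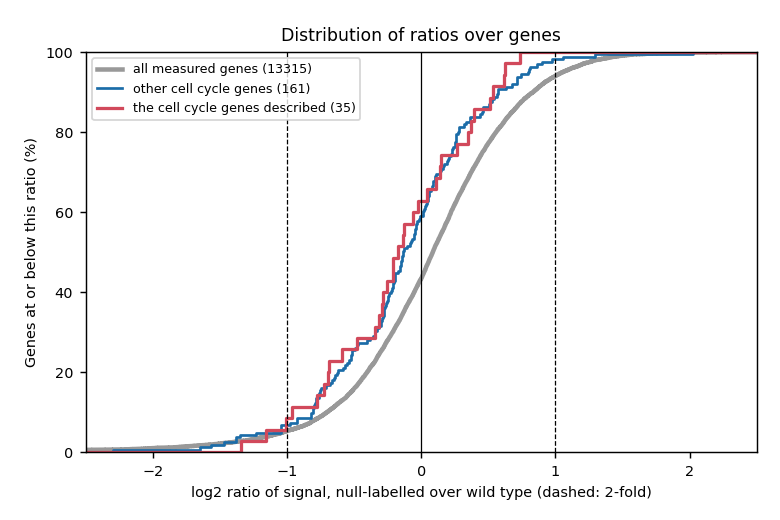
Cumulative share of genes (%) at or below each log2 ratio, for all 13315 measured genes, 161 other cell cycle genes and the 35 genes described, with dashed lines at 2-fold. The curves of both cell cycle lists lie left of that of all genes near the middle, with medians of -0.13 and -0.18 against 0.086.

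The replication lists are given by step, and differences between them were not tested. Of 18 genes that mark and license origins, 7 had a ratio below 0, 1 was 2-fold lower and 1 higher, with a median of 0.19. Gins2, a subunit of the helicase activator GINS, read 1275 and 357, at least 2.61-fold lower, and Cdc45, its partner, 769 and 1599, 2.08-fold higher, with 0.097 at its second probe set. Of 19 polymerase and fork genes, 13 were below 0, 2 were 2-fold lower and 0 higher (median -0.16). Fen1, the nuclease that trims Okazaki fragments, read 154325 and 31452, 4.91-fold lower, at a probe set with the suffix _x_at, and had a log2 ratio of 0.21 at its plain one. Pold2, a subunit of polymerase delta, read 1673 and 566, 2.96-fold lower at its 1 measured probe set. Of 8 nucleotide supply genes, 2 were below 0 and 1 was 2-fold higher (median 0.14): Shmt1, a serine hydroxymethyltransferase of folate metabolism, read 3594 and 14649, but its 3 probe sets ranged from -0.71 to 2.03. Of 9 chromatin replication genes, 7 were below 0 and 0 were 2-fold apart (median -0.28, but -0.028 without _x_at and _s_at probe sets or with the median over each gene's probe sets). Its brightest members were Hmgb2, a chromatin protein of dividing cells, at 31489 and 22000.0, and Slbp, which binds histone mRNA, at 7269 and 8815.

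Among genes of mitosis, 13 of 16 measured kinetochore and checkpoint genes had a ratio below 0 and 0 were 2-fold apart (median -0.26), with Bub3 at 25865 and 22982 and Cdca8 at 11897 and 9992 the brightest. Of 20 spindle and cytokinesis genes, 13 were below 0, 2 were 2-fold lower and 1 higher (median -0.18, but 0.17 with the median over each gene's probe sets). Tacc3, a spindle protein, read 1602 and 617, 2.60-fold lower, and Racgap1, a regulator of the cleavage furrow, 1761 and 856, 2.06-fold lower. Cit, citron kinase, read 1682 and 4121 at an _x_at probe set, 2.45-fold higher, and had a log2 ratio of -0.41 at its other. Of 12 condensin and cohesin genes, 6 were below 0 and 0 were 2-fold apart (median -0.056, and 0.031 with loess), with Rad21 at 21692 and 25856 and Smc4 at 15546 and 15906 the brightest. Of 21 genes of the anaphase promoting complex and the SCF ubiquitin ligase, 12 were below 0 and 1 was 2-fold lower (median -0.13), the ubiquitin-conjugating enzyme gene Ube2s at 1151 and 458, a bound.

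Among the regulators, 11 of 18 E2F, retinoblastoma and DREAM complex genes were below 0, 1 was 2-fold lower and 0 higher (median -0.11). The lower one, Lin52, read 1009 and 269 and had a probe set of the opposite sign (a log2 ratio of 0.72). Of 20 kinase control and checkpoint genes, 11 were below 0, 4 were 2-fold lower and 0 higher (median -0.17, but 0.065 without _x_at and _s_at probe sets). Cdkn1c, the third inhibitor of the family of Cdkn1a and Cdkn1b and an imprinted gene, read 50707 and 16148, 3.14-fold lower at its 1 probe set. In that family Cdkn1a and Cdkn1c were thus 2-fold lower, as were 5.36% of all measured genes. The call of Cdkn1a was lost with quantile normalization or loess. Cdkn1b was 1.66-fold higher, short of 2-fold and at 1 measured probe set. Pkmyt1, an inhibitory kinase of Cdk1, read 1355 and 248, at least 2.77-fold lower. Cdc25b, the phosphatase with the opposite effect, read 1888 and 914, 2.06-fold lower. Mdm2, a p53 target and inhibitor, read 1515 and 595, 2.55-fold lower where it was brightest, but at 2 further probe sets its log2 ratio was above 0, at 0.19 or more. Housekeeping genes, 7 measured, had a median of 0.033, and 0 were 2-fold apart. That median was -0.024 with loess and 0.29 with the median over each gene's probe sets, and other probe sets of Actb and Pgk1 had log2 ratios of 2.73 and -1.36.

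**Figure D4:**
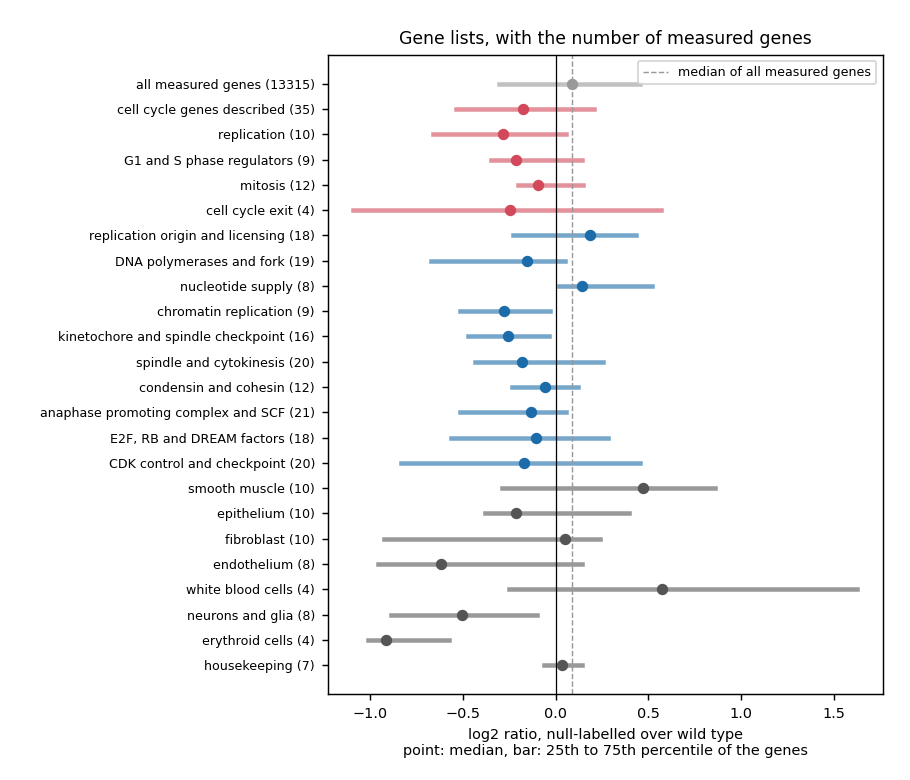
Median log2 ratio (points) and 25th to 75th percentile of genes (bars) for all measured genes, the 35 genes and their roles (red), 10 lists of other cell cycle genes (blue) and lists of cell type and housekeeping genes (dark grey), with the number of measured genes in brackets. The cell cycle medians lie between -0.29 and 0.19, against 0.086 for all genes (dashed line).

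The choice of probe set moved some single genes by more than the pooled SD within genes, whereas scaling moved none by that much. The sign was the same in every alternative that measured the gene for 28 of the 35 genes, 20 below 0 and 8 above. For genes with 1 measured probe set, such as Rb1 and Pcna, the choice of probe set could not change the sign. The 28 also include Rrm2 and Bub1, whose probe sets disagree in sign. The count of 28 is therefore no measure of robustness. The median over all measured genes moved from 0.086 to -0.021 with loess on signal, under which the median of the 35 was -0.16. At the 75th percentile limit the medians were -0.033 and -0.21. With quantile normalization they were 0.017 and -0.12. Without the probe sets ending in _x_at or _s_at, Ccne1 was no longer 2-fold lower (-0.26) and Mcm7 was (-1.06). With the median over each gene's measured probe sets, 2 genes were 2-fold lower, Rb1 and Cdkn1a, and genes below 0 went from 22 to 26. Under it 5 genes turned from above to below 0, Cdk6 (-0.17), Mcm2 (-0.20), Ccnd2 (-0.079), Cdc20 (-0.24) and Aurkb (-0.22), and Top2a turned to 0.026.

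**Figure D5:**
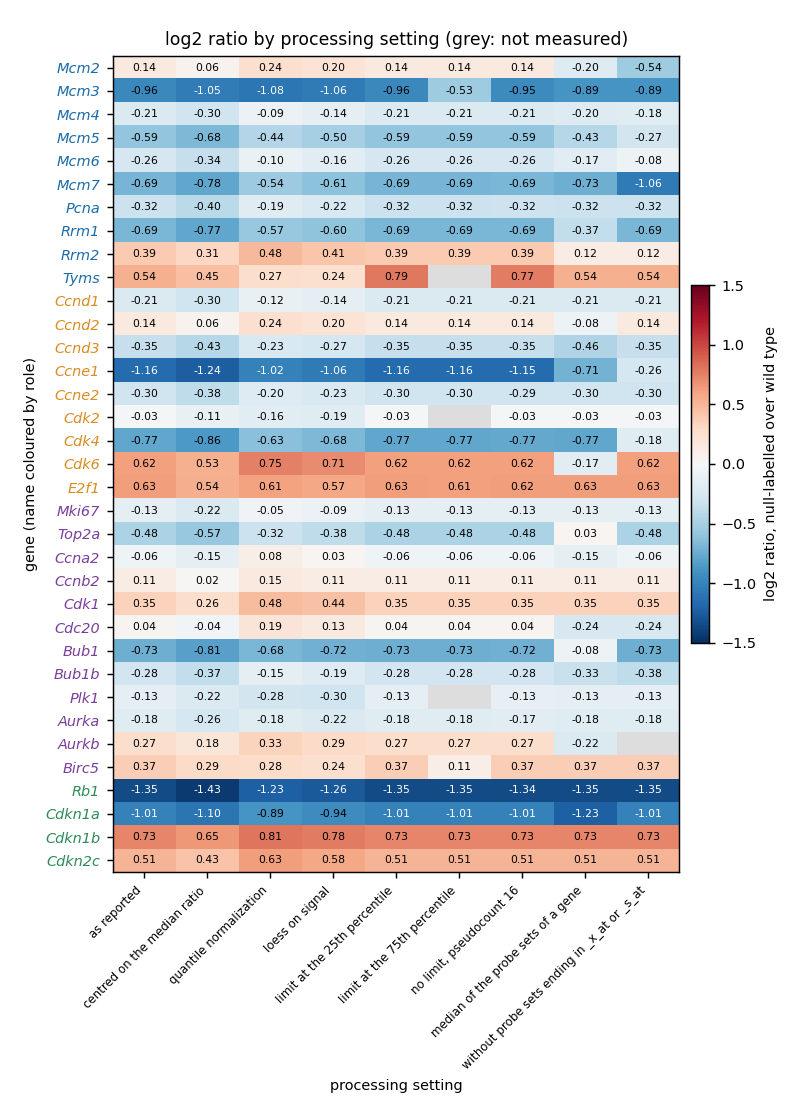
Log2 ratio of null-labelled over wild-type signal of each of the 35 genes (rows, named in the colour of their role) as reported and under 8 processing alternatives (columns); grey cells were not measured. Rb1 stays between -1.43 and -1.23 and Cdkn1b between 0.65 and 0.81. Each of these has 1 measured probe set, so the choice of probe set could not move it. Ccne1 and Cdk6 have 2 measured probe sets each. Ccne1 ranges from -1.24 to -0.26, and Cdk6 changes sign in 1 alternative.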

How the data were processed

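The deposited values are signal intensities, 1 per probe set on a linear scale, for which the submitters' processing notes name MAS5 without version or settings; no detection calls were used here. Biotin-labelled cRNA from 6 µg of total RNA was hybridized to Affymetrix arrays, per the labels' protocols. The mean after trimming 2% at each end is 1500 on both arrays. Of 45101 probe sets, 64 controls, 932 with several symbols and 9160 unnamed here were left out. Symbols are those of the platform annotation GEO holds, possibly dated, and were checked by Entrez ID against RefSeq (GRCm38.p6) for 34741 probe sets. Genes were given by the probe set brightest over both arrays; counts use 2-fold. Genes below the limit on both arrays were not measured. The number of arrays limits the precision, and no test was possible.

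The 36 genes, roles and lists were chosen with earlier results of these data known. All 36 are named. In each list of other cell cycle genes up to 4 genes past 2-fold, or else the 2 brightest, are named. Of the marker lists only counts, sums and medians are given, except for Myh3. Alternatives were median centring, quantile normalization, loess (span 0.3), limits at the 25th and 75th percentile, a pseudocount of 16 with no limit, the median over a gene's measured probe sets, omission of _x_at and _s_at probe sets, and a 1.5-fold rule. The scripts were tested on simulated data. Python 3.11.15, numpy 2.4.6, pandas 2.3.3 and statsmodels 0.14.6 were used.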

Additional observations from a re-analysis of the deposited data

How the results depend on the processing

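The count of genes at least 2-fold lower was 2 to 4 and that of genes 2-fold higher 0 in the 8 alternatives of scaling, limit and probe set. With the 1.5-fold rule they were 9 and 3. The group median lay between -0.26, with centring, and -0.12, with quantile normalization. Of 276 recomputed ratios of single genes, 271 moved by less than the pooled SD within genes (0.56) and 5 by more. None of the 3 genes past 2-fold changed sign. The 5 larger moves, of Mcm2, Ccne1, Cdk4, Cdk6 and Bub1, all came from taking other probe sets. Centring, the lower limit and the pseudocount could move most of these ratios only a little. The count of 271 is therefore no measure of robustness. The medians of replication (-0.37 to -0.14), G1 and S phase regulators (-0.30 to -0.16) and exit genes (-0.36 to -0.13) stayed below 0 in these 8, and that of mitosis ran from -0.18 to 0.016. The other lists were recomputed by an added choice made after seeing the data; the medians of the spindle, condensin, kinase control, fibroblast and housekeeping lists changed sign in at least 1 alternative. Over all measured genes the 2-fold counts were 714 lower and 800 higher as reported, 938 and 449 with loess, 808 and 544 with quantile normalization, 831 and 612 with centring, 1232 and 2742 with the lower limit (25th percentile), 383 and 148 with the higher one (75th), and 1704 and 3548 without any. No paired analysis was possible because each genotype has 1 array. With signals near the limit, as for Tyms, a ratio is only a bound.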
